A study of Mus musculus with 2 samples.

Results

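The miR-15/16 family comprises the miRNAs of 3 small gene clusters whose main products share their bases 2 to 8. All arms of mir-15a, mir-15b, mir-16, mir-195a and mir-497 were taken from the deposited table of mature mouse miRNAs by name, which gave 10 arms of 717 miRNAs analysed. The TAMs library came from CD11b+ cells taken with magnetic beads from 4T1 mammary tumors grown for 3 weeks in female BALB/c mice whose mammary fat pad was injected at 8 weeks of age. The control library, SMs, came from macrophages from the spleen of naïve BALB/c mice. BALB/c mice of the study were bought as females at 6 to 8 weeks of age, and how the spleen cells were isolated was not given in the sources used here. The methods state lysis of red blood cells for the tumors, and purity of the isolated cells was checked by flow cytometry as CD11b+ 7AAD- cells. The labels name no transgene or treatment, and the number of mice behind each library was not given. CD11b is also carried by neutrophils, monocytes and NK cells, so the beads do not take macrophages alone. The level of each miRNA is its count per 1000000 reads of a total per library (TPM). That total was 13324721 reads in TAMs against 15422872 in SMs, which makes a single read 0.0750 TPM in TAMs and 0.0648 in SMs. With 1 library per group no difference had a replicate check, no test was run, and the intervals given are 95% intervals for counting error only.

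A miRNA hairpin is cut into a duplex of a 5p and a 3p arm. Usually one arm, the guide, is loaded into Argonaute and the other, the passenger, is degraded. The guide finds mRNAs mainly through its seed, bases 2 to 8, so miRNAs with the same seed act on overlapping sets of targets. The miR-15/16 seed is known for repression of cell cycle genes such as D-type cyclins and of the survival gene BCL2, and the MIR15A and MIR16-1 genes are often deleted in human chronic lymphocytic leukemia. In mouse, miR-195a is known for restraining the cell cycle of heart muscle cells after birth.

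The guides are printed because they show both the bases that make the family a single seed pool and how far its members can be told apart. Sequences are from RefSeq (GRCm38.p6), 5′ to 3′, with the seed in capitals, and all 10 deposited sequences were identical to them.
mmu-miR-16-5p: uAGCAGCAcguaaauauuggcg
mmu-miR-195a-5p: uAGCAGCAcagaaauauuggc
mmu-miR-15a-5p: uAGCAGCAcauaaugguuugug
mmu-miR-15b-5p: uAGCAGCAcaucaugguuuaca
mmu-miR-497-5p: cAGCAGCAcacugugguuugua
mmu-miR-322-5p: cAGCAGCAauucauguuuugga

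The first 5 are the guides of the family, and miR-322-5p is the only other miRNA of the table with these bases 2 to 8. The seed AGCAGCA thus stood at bases 2 to 8 in 6 of 717 miRNAs (0.837%), read on the strand of the miRNA. Counted from the 5′ end, miR-195a-5p differs from miR-16-5p by 2 substitutions, G10A and U11G, and ends 1 base earlier. miR-15b-5p differs from miR-15a-5p by 4 substitutions, A12C, G20A, U21C and G22A. miR-497-5p differs from miR-16-5p by 11 substitutions. The header of the deposited table mentions a database with variants of 2 bp, without saying what these are, so counts of miR-195a-5p beside the far more abundant miR-16-5p are uncertain.

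The passenger arms are printed because they tell the loci apart. Their seeds, again in capitals, differ from each other and were found in no other miRNA of the table.
mmu-miR-15a-3p: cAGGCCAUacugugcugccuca
mmu-miR-16-1-3p: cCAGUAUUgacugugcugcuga
mmu-miR-15b-3p: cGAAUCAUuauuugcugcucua
mmu-miR-16-2-3p: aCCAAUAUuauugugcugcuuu
mmu-miR-195a-3p: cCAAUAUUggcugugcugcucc

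Close to its 3′ end each passenger arm holds UGCUGC, the reverse complement of bases 3 to 8 of the guides. This motif, searched on the miRNA strand, was in all 5 passenger arms of the family and in 12 of 717 miRNAs (1.67%). The hairpins of Mir16-1 and Mir16-2 show that both encode the same miR-16-5p, while the passenger arm and the loop differ. Capitals mark both mature arms.
Mir16-1: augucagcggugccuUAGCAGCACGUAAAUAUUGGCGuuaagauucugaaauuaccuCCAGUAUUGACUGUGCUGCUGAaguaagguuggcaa
Mir16-2: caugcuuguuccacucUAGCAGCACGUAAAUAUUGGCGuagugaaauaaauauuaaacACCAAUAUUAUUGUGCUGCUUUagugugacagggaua

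On GRCm38, Mir16-1 (chr14:61631880-61631972) and Mir15a (chr14:61632027-61632110) lie 54 bases apart on the minus strand within the long noncoding gene Dleu2. In GENCODE M21, Mir15a falls in a Dleu2 intron and Mir16-1 overlaps a Dleu2 exon. Mir15b (chr3:69009772-69009835) and Mir16-2 (chr3:69009902-69009996) lie 66 bases apart on the plus strand in an intron of Smc4, which encodes a condensin subunit used in mitosis. Mir497 (chr11:70234717-70234800) and Mir195a (chr11:70235042-70235135) lie 241 bases apart on the plus strand and overlap no other gene of GENCODE M21 except Mir497b, on the opposite strand of Mir497. A count of miR-16-5p therefore sums 2 loci, whereas every other arm comes from a single locus.

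In TPM, the pool of guides was about 2-fold smaller in TAMs than in SMs, and nearly all of it was miR-16-5p in either library. The 5 guides summed to 11204 TPM (149288 counts) in TAMs against 22882 (352905 counts) in SMs, a ratio of 0.490 (0.487 to 0.493). They made up 2.04% of the 7333652 miRNA counts of TAMs and 3.49% of the 10108834 of SMs. Over the 264 miRNAs that reached 10 TPM in either library, the median ratio was 0.782 (median log2 −0.36, on the scale of TPM + 1), and the ratio of the pool was 0.626 of that median. Known miRNA counts were 55.0% of the library total in TAMs and 65.5% in SMs. Scaled to the sum of these counts, the ratio of the pool was 0.583. In bulk samples such as these, fewer cells that express a miRNA and less of it per cell cannot be told apart.

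**Figure D1:**
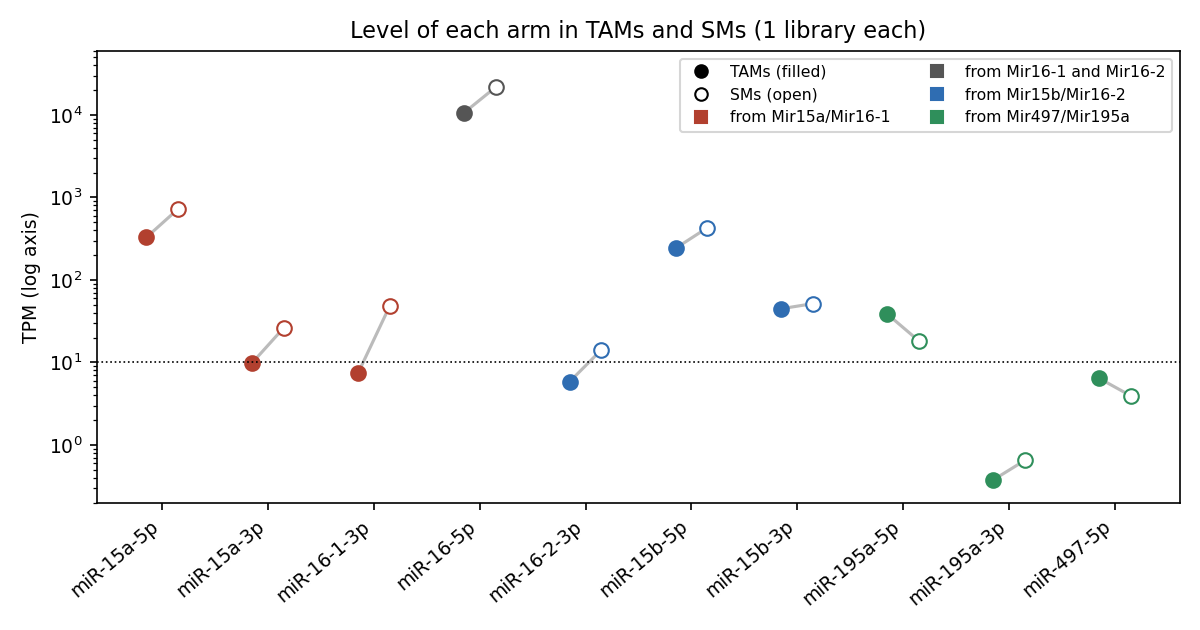
TPM (log axis) of the 10 arms, with TAMs as filled points left of SMs as open points, colored by the locus that encodes them, and a dotted line at 10 TPM. miR-16-5p stands far above every other arm at 10589 TPM in TAMs against 21704 in SMs, and miR-195a-5p and miR-497-5p are the arms that lie higher in TAMs.

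mmu-miR-16-5p, a miRNA present in most cell types, had 10589 TPM in TAMs against 21704 in SMs. By abundance it ranked 10 in TAMs and 6 in SMs, and it was 2.05-fold lower in TAMs (2.04 to 2.06). It held 94.5% (94.4 to 94.6%) of the guide pool in TAMs and 94.9% (94.8 to 94.9%) in SMs. Its share of the pool thus stayed nearly the same while the pool itself was smaller.

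The other guides of the Dleu2 and Smc4 loci stood near each other in level. mmu-miR-15a-5p had 328.0 TPM in TAMs against 727.1 in SMs, 2.22-fold lower in TAMs (2.14 to 2.30). mmu-miR-15b-5p had 241.6 TPM in TAMs against 428.6 in SMs, 1.77-fold lower in TAMs (1.70 to 1.85) and short of 2-fold. In TAMs there were 32.3 counts of miR-16-5p for each count of miR-15a-5p, and 29.9 in SMs. For miR-15b-5p there were 43.8 counts of miR-16-5p in TAMs and 50.6 in SMs.

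The guides of the Mir497/Mir195a cluster went the other way. miR-195a-5p had 38.7 TPM (516 counts) in TAMs against 18.2 (281 counts) in SMs, a ratio of 2.13 (1.83 to 2.47). miR-497-5p had 6.45 TPM (86 counts) in TAMs against 3.96 (61 counts) in SMs, a ratio of 1.63 (1.16 to 2.30), and stayed under 10 TPM in both. These 2 guides were small parts of the pool even where they were higher. In TAMs miR-195a-5p held 0.346% of the pool (0.317 to 0.377%) and miR-497-5p 0.0576% (0.0461 to 0.0711%). In SMs miR-195a-5p held 0.0796% (0.0706 to 0.0895%) and miR-497-5p 0.0173% (0.0132 to 0.0222%).

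Set against miR-16-5p, with which it shares its first 9 bases, miR-195a-5p had 3.66 counts per 1000 in TAMs and 0.839 in SMs. That proportion was 4.36-fold higher in TAMs (3.77 to 5.04) and does not depend on the library totals. miR-497-5p, much farther from miR-16-5p in sequence, had 0.610 counts per 1000 in TAMs and 0.182 in SMs, 3.34-fold higher in TAMs (2.41 to 4.64). Whether reads of miR-16-5p were counted as miR-195a-5p was not tested. The proportion of miR-195a-5p to miR-497-5p, from a common cluster, was 6 (4.77 to 7.63) in TAMs and 4.61 (3.48 to 6.18) in SMs, and these intervals overlap.

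Of the 10 arms, 8 reached 10 TPM in either library, and miR-497-5p and miR-195a-3p did not. Among the 8, 5 were at least 2-fold lower in TAMs on the scale of TPM + 1, against 32.6% of the 264 miRNAs, and only miR-195a-5p was at least 2-fold higher, against 24.2%. The 5 were miR-15a-5p, miR-15a-3p, miR-16-5p, miR-16-1-3p and miR-16-2-3p, of which miR-16-5p, at a log2 difference of −1.04, lay closest to the threshold. Of them, miR-15a-3p, miR-16-1-3p and miR-16-2-3p reached 10 TPM in SMs alone, so their passing the minimum already placed them lower in TAMs. miR-15b-5p and miR-15b-3p were neither. The median log2 difference of the 8 was −1.09, against −0.36 over the 264. That of the 8 includes the arms that passed the minimum in SMs alone, and arms of a shared hairpin are not independent. miR-16-5p was short of 2-fold with TMM factors (ratio 0.518) and with DESeq2 size factors (0.511), which left 4 arms lower, against 29.5% and 29.7% of all miRNAs at those scalings. Scaled to the sum of known miRNA counts, 2 of the 8 arms were at least 2-fold lower, miR-15a-3p and miR-16-1-3p, a share no higher than the 25.4% of all miRNAs. With deposited totals less the 10 most abundant miRNAs of each library, the ratio of miR-195a-5p was 1.92, short of 2-fold.

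**Figure D2:**
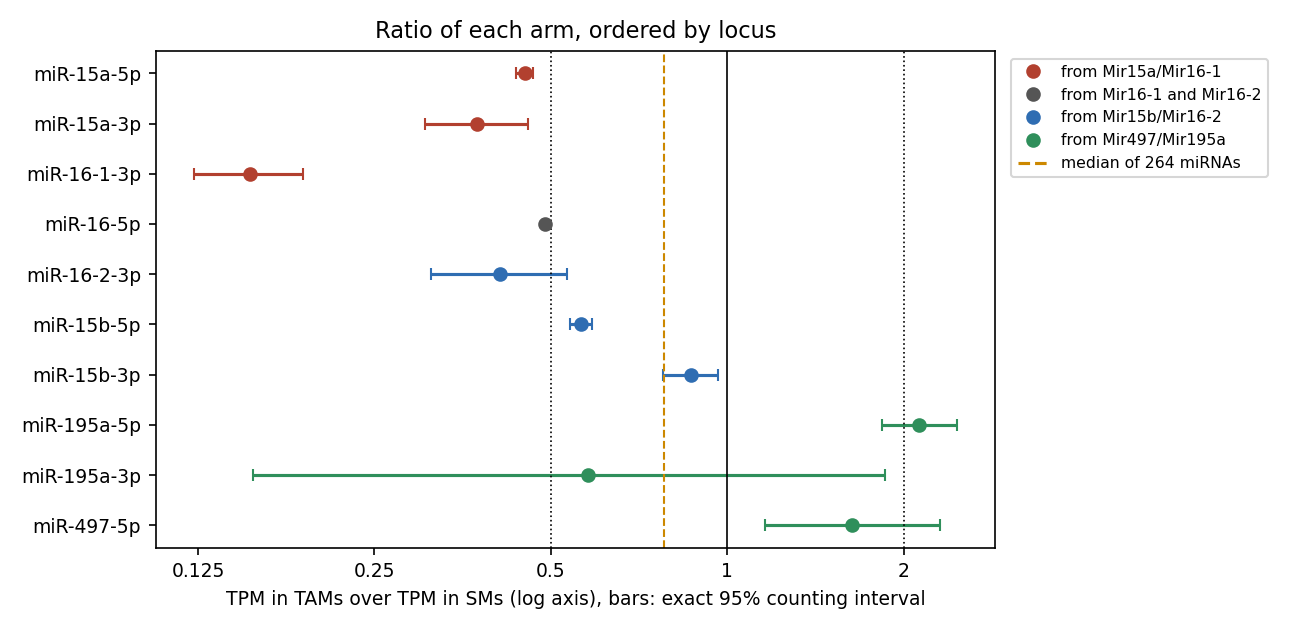
Ratio of the levels in TPM, TAMs over SMs (log axis), for the 10 arms by locus, with exact 95% counting intervals as bars, dotted lines at 2-fold and a dashed line at the median of 264 miRNAs (0.782, on TPM + 1). miR-16-1-3p lies lowest at 0.153, miR-15b-3p lies close to the median at 0.867, and miR-195a-5p and miR-497-5p lie above 1.

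The passenger arms, which assign counts to a locus, differed more between the Dleu2 and Smc4 loci than the miR-15 guides did. miR-16-1-3p had 7.43 TPM (99 counts) in TAMs against 48.5 (748 counts) in SMs, 6.53-fold lower in TAMs (5.29 to 8.13), the lowest ratio of the family. Of the 264 miRNAs, 5.30% had a lower log2 difference. miR-16-2-3p, the matching arm of the Smc4 locus, had 5.85 TPM (78 counts) in TAMs against 14.3 (220 counts) in SMs, 2.44-fold lower (1.87 to 3.20).

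miR-15a-3p had 9.91 TPM (132 counts) in TAMs against 26.5 (408 counts) in SMs, 2.67-fold lower in TAMs (2.19 to 3.27). mmu-miR-15b-3p had 44.8 TPM (597 counts) in TAMs against 51.7 (797 counts) in SMs, a ratio of 0.867 (0.778 to 0.965). The direction of miR-15b-3p turned when the libraries were scaled to the sum of known miRNA counts, where its ratio was 1.03. miR-195a-3p had 5 counts in TAMs and 10 in SMs, and its ratio of 0.579 (0.155 to 1.86) gave no direction at this depth.

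Both pairs of passenger arms were shifted away from the Dleu2 locus in TAMs. Of the 177 counts of miR-16 passenger arms in TAMs, 55.9% (48.3 to 63.4%) were miR-16-1-3p, against 77.3% (74.5 to 79.9%) of 968 counts in SMs. Of the 729 counts of miR-15 passenger arms in TAMs, 18.1% (15.4 to 21.1%) were miR-15a-3p, against 33.9% (31.2 to 36.6%) of 1205 counts in SMs. Together the 2 passenger arms of the Dleu2 locus had 231 counts to 675 of the Smc4 locus in TAMs, and 1156 to 1017 in SMs. The proportion of these passenger arms, Dleu2 over Smc4, was thus 3.32-fold lower in TAMs (2.80 to 3.94). Most of the Smc4 counts were miR-15b-3p, with 597 in TAMs and 797 in SMs.

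The guides showed the same shift in smaller size. miR-15a-5p was 57.6% (56.5 to 58.7%) of the miR-15 guides in TAMs and 62.9% (62.2 to 63.6%) in SMs, so that its proportion to miR-15b-5p was 1.25-fold lower in TAMs (1.18 to 1.32). Proportions of counts within a library are untouched by the choice of library total. The interval for the guides and that for the miR-15 passenger arms, 2.32-fold lower (1.85 to 2.89), did not overlap.

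**Figure D3:**
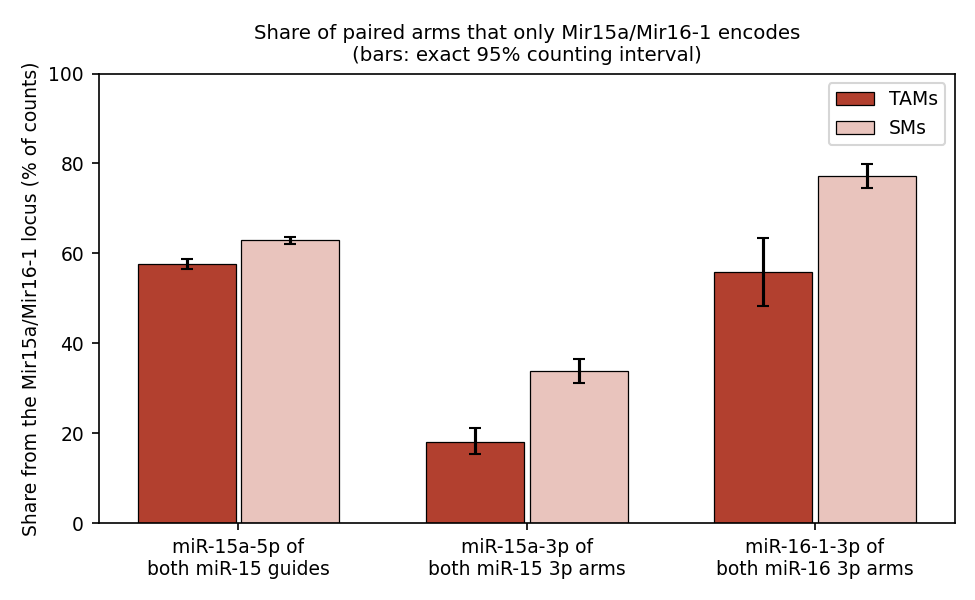
Share of counts (%) held by the arm that only the Mir15a/Mir16-1 locus encodes, for the miR-15 guides, the miR-15 passenger arms and the miR-16 passenger arms, with TAMs left of SMs and exact 95% counting intervals as bars. The share is lower in TAMs in each of the 3 pairs, by the most percentage points for miR-16-1-3p, at 55.9% in TAMs and 77.3% in SMs.

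The balance of guide to passenger within a hairpin was not the same in the 2 libraries. miR-15b-5p outnumbered miR-15b-3p 5.39 to 1 (4.94 to 5.89) in TAMs and 8.29 to 1 (7.71 to 8.94) in SMs, the smallest excess of guide over passenger in the family. This excess was 1.54-fold lower in TAMs (1.37 to 1.72). miR-15a-5p outnumbered miR-15a-3p 33.1 to 1 (27.8 to 39.7) in TAMs and 27.5 to 1 (24.9 to 30.4) in SMs, and the interval of the change, 0.987 to 1.47 in TAMs over SMs, included 1.

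For miR-16 the excess of guide was by far larger and moved the opposite way from that of miR-15b. Counts of miR-16-5p were 797 times (688 to 929) those of its passenger arms summed in TAMs, and 346 times (325 to 369) in SMs, 2.31-fold higher in TAMs (1.96 to 2.71). Since miR-16-5p cannot be split between its loci, this value mixes the Dleu2 and Smc4 hairpins. miR-195a-5p had 516 counts to 5 of miR-195a-3p in TAMs and 281 to 10 in SMs, too few passenger counts to give more than a wide interval for the change, 1.24 to 10.9.

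Within a cluster, neighboring hairpins did not keep a fixed proportion of passenger arms. In the Dleu2 locus, miR-15a-3p over miR-16-1-3p was 1.33 (1.02 to 1.75) in TAMs and 0.545 (0.482 to 0.616) in SMs. In the Smc4 locus, miR-15b-3p over miR-16-2-3p was 7.65 (6.04 to 9.82) in TAMs and 3.62 (3.12 to 4.23) in SMs. In both loci the passenger arm of miR-15 stood higher relative to that of miR-16 in TAMs than in SMs, by 2.44-fold (1.83 to 3.26) and 2.11-fold (1.60 to 2.79).

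miR-322-5p, the mouse counterpart of human miR-424-5p and encoded on chromosome X, shares the seed without belonging to these loci. It had 125.4 TPM in TAMs against 363.0 in SMs, 2.89-fold lower in TAMs (2.74 to 3.06). Relative to miR-16-5p it was 1.41-fold lower in TAMs (1.34 to 1.49). With miR-322-5p added, all 6 miRNAs with the seed summed to 11329 TPM in TAMs against 23245 in SMs, a ratio of 0.487 (0.484 to 0.490).

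**Figure D4:**
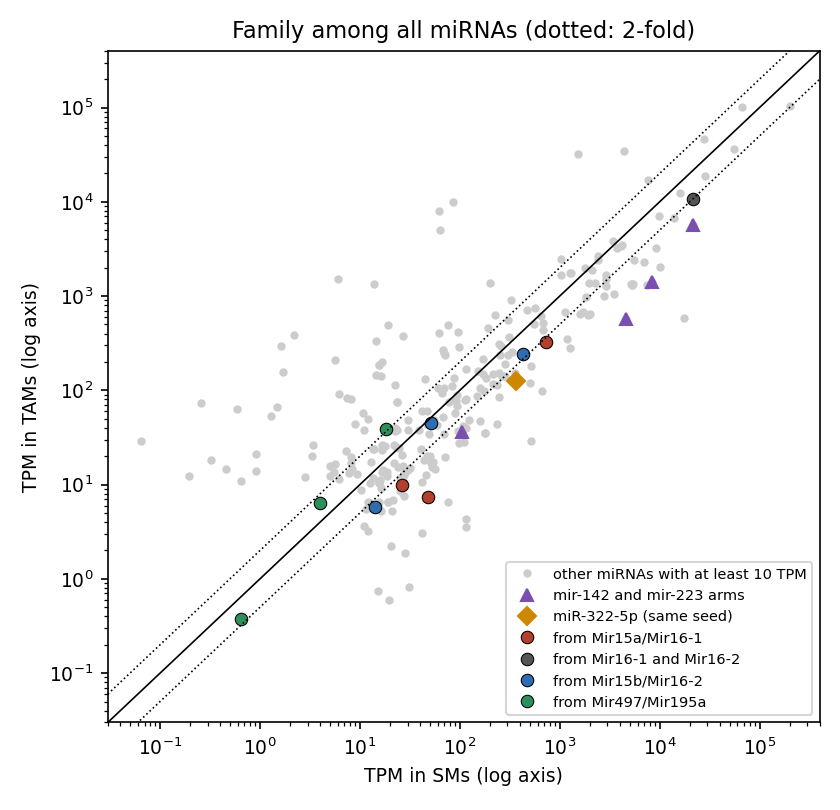
TPM in TAMs against TPM in SMs (both axes log) for the 10 arms of the family, miR-322-5p, the arms of mir-142 and mir-223, and the other miRNAs with at least 10 TPM in either library, with a solid line at equal levels and dotted lines at 2-fold. miR-16-5p and miR-15a-5p lie near the lower 2-fold line, the arms of mir-142 and mir-223 lie below it, and miR-195a-5p lies near the upper line.

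Other miRNAs with a level like that of miR-16-5p were ranked by the distance in log2(TPM + 1) over the 2 libraries, among 137 miRNAs that reached 100 TPM in either library. The nearest 5 were miR-181a-5p (distance 0.50), miR-142-5p (0.89), miR-22-3p (0.89), miR-26a-5p (0.91) and let-7f-5p (1.26). Of these, miR-26a-5p was closest in its ratio, with 6740 TPM in TAMs against 14041 in SMs, 0.480 against 0.488 for miR-16-5p.

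Lists of miRNAs known from particular cell types were set beside the family. All 4 arms of mir-142 and mir-223, miRNAs of leukocytes and of myeloid cells that were detected in both libraries, were at least 2-fold lower in TAMs, against 32.6% of all 264 miRNAs, and their sum was 7752 TPM in TAMs against 34561 in SMs, a ratio of 0.224. Both lymphocyte miRNAs, miR-150-5p and miR-342-3p, were also at least 2-fold lower, against the same 32.6%, with a sum of 1160 TPM in TAMs against 3989 in SMs. So were all 4 miRNAs of red blood cells, again against 32.6%, with 1376 TPM in TAMs against 6022 in SMs. Most of that sum was miR-486-5p, with 1343 TPM in TAMs against 5355 in SMs, a ratio of 0.251, while the ratios of miR-451a, miR-144-3p and miR-144-5p were 0.0563, 0.0304 and 0.0266. Of these, miR-144-3p and miR-144-5p reached 10 TPM in SMs alone, so their passing the minimum already placed them lower in TAMs. Counts of miR-486-5p, 17892 in TAMs and 82588 in SMs, were close to those of miR-486-3p, miR-3107-5p and miR-3107-3p. Some reads may thus stand under several names, also in the shares over all miRNAs and the sum of known miRNA counts. None of these lists had a member at 0, and their part in the lower miR-15/16 levels was not tested.

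Beside the higher miR-195a-5p and miR-497-5p, 2 of the 4 stromal miRNAs with at least 10 TPM were at least 2-fold higher in TAMs, against 24.2% of all 264 miRNAs. These were miR-199a-3p, with 187.2 TPM in TAMs against 15.4 in SMs, and miR-199a-5p, with 20.0 TPM in TAMs against 3.31 in SMs. miR-199a-5p reached 10 TPM in TAMs alone, so its passing the minimum already placed it higher in TAMs. Counts of miR-199a-3p, 2494 in TAMs and 238 in SMs, were close to those of miR-199b-3p, 2489 and 240. Some reads may thus stand under both names. miR-143-3p, at a ratio of 0.987, and miR-145a-5p, at 1.35, were neither. miR-214-3p, under 10 TPM in both libraries, had 4.58 TPM in TAMs against 0.389 in SMs. The 5 stromal miRNAs summed to 2617 TPM in TAMs against 2452 in SMs, most of it miR-143-3p. All 7 miRNAs of epithelial cells were at least 2-fold higher, also against 24.2%, with a sum of 1897 TPM in TAMs against 283.9 in SMs. Of them, miR-200a-3p, miR-429-3p and miR-205-5p reached 10 TPM in TAMs alone, so their passing the minimum already placed them higher in TAMs. Both endothelial miRNAs, the arms of mir-126, were neither, with 406.4 TPM in TAMs against 342.6 in SMs. These cell types do not carry CD11b. Whether their cells were carried into either library, and their part in the levels of miR-195a-5p and miR-497-5p, was not tested.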

How the data were processed

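Small RNA of 1 library of TAMs and 1 of SMs was prepared from 3 µg of RNA each with a TruSeq small RNA kit. The authors counted reads of known mature mouse miRNAs and deposited the counts and a TPM, the count per 1000000 reads of a total per library, with no length correction. Bowtie2 is named in the submitters' processing notes. Its version, the build of the genome and the release of miRBase were not given in the sources used here. The authors' own p-values, ratios and marks were not used, and 2 further lines were not analysed here.

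Ratios of TPM had exact conditional binomial intervals, shares exact Clopper-Pearson intervals, and changes in a proportion log-normal intervals (scipy 1.17.1 and pandas 2.3.3 in Python 3.11.15). PCR copies are not independent molecules, so all intervals cover counting error only. Counts past 2-fold used log2(TPM + 1) and at least 10 TPM in TAMs or SMs. The pseudocount understates changes of low miRNAs. The calculations were tested on simulated counts. Members, lists and the rule for named miRNAs (all arms, all miRNAs of the same seed, list members, and the 5 nearest to miR-16-5p) were chosen with earlier results of these data known. Alternatives were TMM factors (edgeR 4.0.16), size factors (DESeq2 1.42.0, R 4.3.3), other totals, minimums, pseudocounts and fold thresholds. Plots used matplotlib 3.10.9.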

Additional observations from a re-analysis of the deposited data

How the results depend on the processing

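No paired analysis was possible because TAMs and SMs have 1 library each. The ratio of the guide pool, 0.490, was 0.519 with TMM factors, 0.513 with DESeq2 size factors, 0.442 with deposited totals less the 10 most abundant miRNAs of each library, 0.583 with the sum of known miRNA counts and 0.522 without miR-16-5p. Scaled to the sum of known miRNA counts without the most abundant ones, chosen after seeing the data, it was 0.690. These scalings multiply every ratio by 0.903 to 1.41, and the median log2 difference of tested miRNAs, −0.36, ran from −0.51 to 0.20, so the sizes are best read against that median. The arms miR-15a-3p, miR-16-1-3p and miR-16-2-3p passed the minimum of 10 TPM in SMs alone. Of 8 arms, 5 were at least 2-fold lower, against 32.6% of all miRNAs. This count was 4 with TMM factors and with DESeq2 size factors, where miR-16-5p was short of 2-fold, 2 with the sum of known miRNA counts (25.4% of all miRNAs), 1 with the scaling chosen after seeing the data (19.7%), 3 with a pseudocount of 10 TPM (66 of 264 miRNAs) and 1 at 4-fold (8.33%). At a minimum of 100 TPM it was 2 of the 3 arms tested (34.3%). The 1 arm at least 2-fold higher, miR-195a-5p, became 0 with totals without the 10 most abundant miRNAs, with 10 TPM added and at 4-fold, and was under the minimum at 100 TPM, where the count was also 0. Under the scaling chosen after seeing the data 91 miRNAs were at least 2-fold higher and 53 lower, against 64 and 86. The ratio of miR-15b-3p, 0.867, was 1.03 with the sum of known miRNA counts and 1.22 with the scaling chosen after seeing the data. Of 70 alternative values for the 10 arms, 44 stayed within the counting interval, 24 left it and 2 changed direction. This tally depends on the width of each interval. All values of miR-195a-3p stayed within its wide interval, while miR-16-5p left its narrow one at every alternative scaling. No scaling can change a proportion of counts within a library.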
